A study of Arabidopsis thaliana with 4 samples.

Results

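The late anthocyanin pathway enzymes described here are 5 genes of Arabidopsis thaliana, taken in pathway order from the reduction of dihydroflavonols to the finished, decorated pigment, out of 22810 probe sets on the array. They are DFR (AT5G42800), LDOX (AT4G22880), UF3GT (AT5G54060), AT4G14090 and AT5MAT (AT3G29590), with 1 probe set each. They were chosen by name and with the difference between the genotypes already known, so their signals in the 2 genotypes are given as a description and get no test. The platform annotation used here names 4 of the 5, and the probe set of LDOX was assigned by the rule that chose the members. Its identifier ends in s_at, which in Affymetrix naming marks probes shared by more than 1 transcript, so its signal may hold RNA of another gene besides LDOX. All 5 passed the filter on dim probe sets, which left 13648 of 22746 probe sets after 64 controls were removed. The filter used the mean over the arrays of both genotypes. AT5MAT, with a mean signal of 29.3 in flc-3 against the filter's 30.8, passed it only through its wild-type arrays.

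Anthocyanins are the red and purple flavonoid pigments of plants. In seedlings they build up in the epidermis of the hypocotyl and cotyledons, above all in strong light, in the cold or on sugar. The pathway starts from the amino acid phenylalanine and first makes chalcones, flavanones and dihydroflavonols, which also feed the colourless flavonols. The late enzymes then turn dihydroflavonols into anthocyanidins and add sugars and acyl groups. In Arabidopsis the late genes are known to be switched on together by complexes of MYB, bHLH and WD40 proteins, while the early genes answer to a separate set of MYB factors.

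Transcripts were measured in whole seedlings of 2 genotypes, both in the Col-0 background, with 2 Affymetrix ATH1 arrays each. The flc-3 seedlings are labelled as a knockout of At5g10140, the gene of the flowering repressor FLC, and their titles write fri in lower case. The wild type is labelled as FRI and FLC, so the state of FRI, the activator of FLC, in the mutant is not settled by the labels. The annotation gives FLC no probe set of its own, so the genotypes were not checked by the level of the deleted gene. The lowest difference on the array was that of 250476_at, which read 9.97 and 12.5 in flc-3, against 775 and 680 in the wild type. The annotation does not name its gene, so it was not used as that check. All seedlings grew on agar with 3% sucrose under continuous light of 55 to 60 µmol per square metre and second for 6 days. They were entrained for 4 days at 22 °C to days and nights of 12 h each, with light of 75 µmol on the same scale. They were then moved to constant light of 25 µmol per square metre and second at 27 °C. Each array carried RNA pooled in equal amounts from 24, 30, 36 and 42 h after that move, so a value averages over a day and shows no phase. In RNA from whole plants, fewer cells of a type and less RNA per cell cannot be told apart. Nothing in the labels says that the replicates were separate cultures, so the spread between them may be technical.

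The median signal was 47.1 to 48.4 on the 4 arrays. With so few arrays, precision is limited throughout. The arrays also differed in their controls. The 25S ribosomal RNA control read 1426 on flc-3 replicate 1 and 45.7 on flc-3 replicate 2, against 135 and 47.6 on the wild-type arrays. Signals of the spiked bacterial and phage controls were lowest on flc-3 replicate 1 and highest on wild type replicate 2 in all 9 probe sets of the newer control set. The ratio of the actin controls for the 3′ and 5′ ends, a sign of RNA integrity, was 4.23 and 4.52 in flc-3 and 3.76 and 4.44 in the wild type. The same ratio for the GAPDH controls was 1.02 and 1.06 in flc-3 and 1.18 and 1.10 in the wild type. Without flc-3 replicate 1 the median log2 difference of the 5 late enzymes was -1.78, and with it -1.84. As a check of the label whole plant, leaf and root markers were read in both genotypes. The 3 measured of 5 leaf markers summed to 6649 and 8173 in flc-3 and to 8329 and 8226 in the wild type, and the 3 root markers to 2841 and 3899 in flc-3 and to 3868 and 3182 in the wild type. No leaf or root marker passed in limma at an adjusted p of 0.05, and EXPA7, a root hair expansin, had an unadjusted p of 0.00301. The signal of EXPA7 was 54.5 and 57.9 in flc-3, against 30.7 and 38.6 in the wild type (log2 difference 0.69). That of EXPA18, also a root marker, was 63.2 and 76.5 in flc-3, against 57.2 and 52.2 in the wild type (log2 difference 0.34). Both were thus higher in flc-3 without overlap. The root sums were mostly the signal of PYK10, whose log2 difference was -0.09.

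All 5 late enzyme probe sets were dimmer in flc-3 than in the wild type. Mean signals in flc-3 lay between 20.2% of the wild-type mean for AT4G14090 and 41.2% for AT5MAT. In each of the 5, both flc-3 arrays lay below both wild-type arrays, as they did in 22.8% of all 13648 tested probe sets. The median log2 difference, flc-3 minus wild type, was -1.84 over the 5 probe sets and -0.01 over all tested probe sets. Differences are on the scale of log2(signal + 1), which understates those of dim probe sets, with the moderated standard error (SE) of the limma fit and n = 2 arrays per genotype. Levels of different probe sets cannot be set against each other, since each has its own probes.

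**Figure D1:**
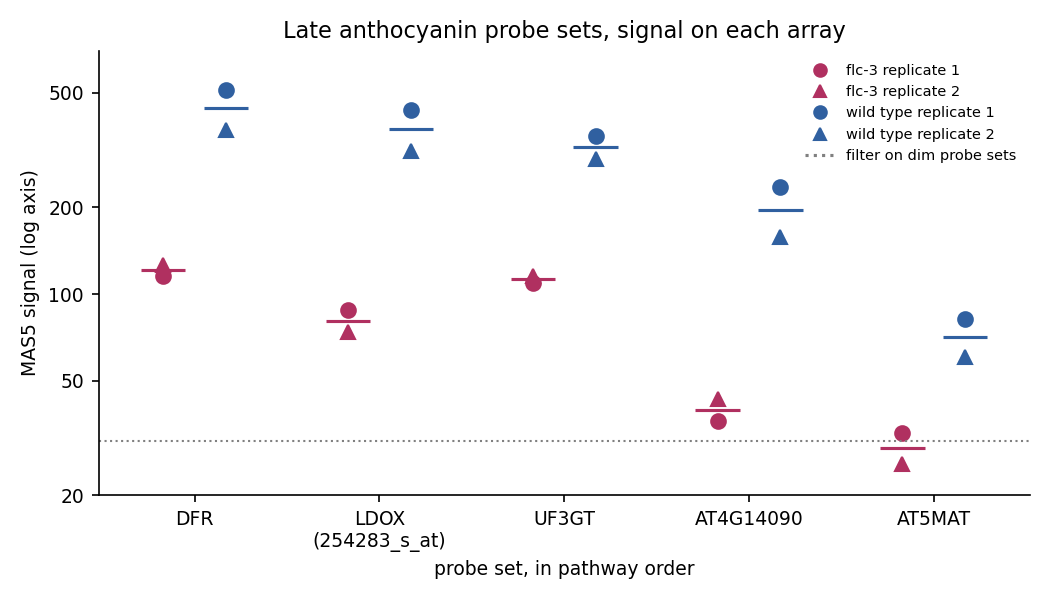
MAS5 signal of the 5 late anthocyanin probe sets on each array, on a log axis, in pathway order. Points are single arrays (circles replicate 1, triangles replicate 2), short lines are means of 2 arrays, and the dotted line is the signal of 30.8, at the mean log2 value below which probe sets were left out. Both flc-3 points lie below both wild-type points in every probe set, and AT5MAT in flc-3 sits at the dotted line.

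DFR, dihydroflavonol reductase, reduces dihydroflavonols to leucoanthocyanidins and so draws them away from the flavonol branch. Its signal was 116 and 126 in flc-3, against 513 and 372 in the wild type. The flc-3 arrays were close together and the wild-type arrays stood well above them and further apart, with a lowest wild-type signal 2.94 times the highest in flc-3. The log2 difference was -1.84 (SE 0.15). By rank within its array, which no scaling between arrays can move, DFR stood above 73.3% and 75.9% of probe sets in flc-3 and above 95.04% and 92.6% in the wild type.

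LDOX, leucoanthocyanidin dioxygenase, oxidises leucoanthocyanidins to the coloured anthocyanidins. The signal of its shared probe set was 87.9 and 73.8 in flc-3, against 435 and 314 in the wild type. No overlap was seen, and the flc-3 mean was 21.6% of the wild-type mean. The log2 difference was -2.18 (SE 0.16), and the ranks were 65.7% and 61.8% in flc-3 against 93.8% and 91.0% in the wild type. AT4G22870, the gene next to LDOX in the TAIR10.1 gene table, has no probe set of its own in the annotation, so it could not be measured apart.

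UF3GT encodes a glycosyltransferase, also known as UGT79B1, that lengthens the sugar already on the anthocyanin core. It had signals of 109.5 and 116 in flc-3, against 355 and 293 in the wild type. Its arrays agreed best within each genotype, and its SE was the smallest of the 5. The log2 difference was -1.51 (SE 0.12), and the flc-3 mean was 34.8% of the wild-type mean.

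AT4G14090 encodes the glucosyltransferase that adds a further glucose to the anthocyanin core. Its signal was 36.1 and 43.1 in flc-3, against 235 and 158 in the wild type. The wild-type arrays differed by 1.49 times, more than for any other of the 5, yet the lower of them was still 3.66 times the higher flc-3 signal. The log2 difference was -2.26 (SE 0.19), a 4.78-fold lower level on this scale. It became -1.91 with a pseudocount of 16, since the flc-3 signals stood above only 42.9% and 47.7% of probe sets, against 87.4% and 80.5% in the wild type.

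AT5MAT encodes a malonyltransferase that adds malonyl to a glucose of the pigment, which stabilises it for storage in the vacuole. Its signal was 32.9 and 25.7 in flc-3, against 81.6 and 60.7 in the wild type. The lower wild-type signal was 1.84 times the higher flc-3 signal, the narrowest gap of the 5. In flc-3 it stood above 40.9% and 36.6% of the probe sets of its arrays, close to the filter, and in the wild type above 64.6% and 56.3%. The log2 difference was -1.25 (SE 0.20), and -0.94 with a pseudocount of 16. Detection calls were not used here, so whether the flc-3 signals lay above background is not known.

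The size of the difference did not follow the order of the pathway. Ordered by the log2 difference over all 4 arrays, on the scale of log2(signal + 1), the genes ran AT4G14090, LDOX, DFR, UF3GT and AT5MAT. In this order the largest and the smallest belonged to the last 2 steps. Neighbours in that order differed by 0.07, 0.34, 0.33 and 0.26 on the log2 scale. The ends of the order, AT4G14090 and AT5MAT, were 1.01 apart. The first place was not stable. With a pseudocount of 16 the difference was -1.998 for LDOX, against -1.91 for AT4G14090. Without flc-3 replicate 1 it was -2.31 for LDOX, against -2.13 for AT4G14090. In the other alternatives AT4G14090 stayed first. Comparing each flc-3 array with each wild-type array gave 4 values per gene. All 20 were below 0, which restates that both flc-3 arrays lay below both wild-type arrays, as in 22.8% of tested probe sets. The values ran from -1.55 to -2.14 for DFR, from -1.83 to -2.54 for LDOX and from -1.33 to -1.69 for UF3GT. For AT4G14090 they ran from -1.85 to -2.67 and for AT5MAT from -0.86 to -1.63. These spans overlapped between all neighbours in the order. The spans of AT4G14090 and LDOX did not overlap those of UF3GT and AT5MAT. All 5 genes share the 4 arrays, so the spans are not independent of each other.

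A measure other than the genotype difference is the difference between arrays of 1 genotype. In the wild type, replicate 1 was brighter than replicate 2 in 5 of 5 probe sets, by 1.21 times for UF3GT, 1.34 for AT5MAT, 1.38 for both DFR and LDOX, and 1.49 for AT4G14090. On the log2 scale this was 0.27 to 0.57, with a median of 0.46, while over all tested probe sets the median was -0.01 and the central 90% lay between -0.43 and 0.44. In flc-3, replicate 1 was brighter in 2 of 5, with differences from -0.25 for AT4G14090 to 0.35 for AT5MAT and a median of -0.08. Of all tested probe sets 52.9% were above 0 there, with a median of 0.01. The late genes thus stood on the same side in the 2 wild-type arrays and on both sides in the 2 flc-3 arrays. Each is a single pair of arrays, and the genes share those arrays.

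**Figure D2:**
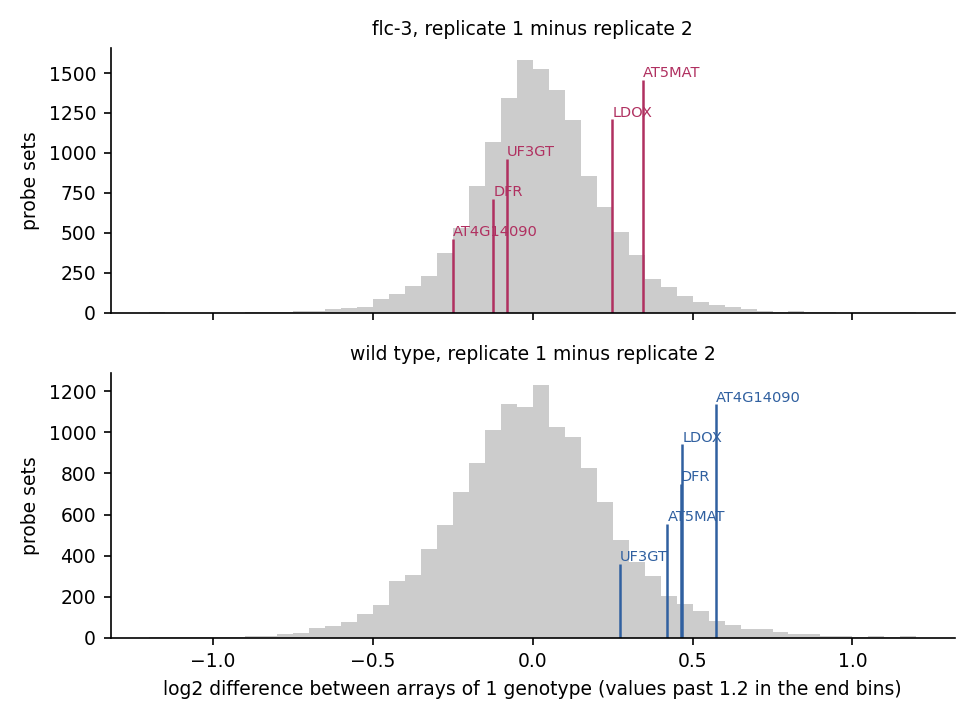
Log2 difference between replicate 1 and replicate 2 within flc-3 (top) and within the wild type (bottom). Grey bars count the 13648 tested probe sets, and vertical lines mark the 5 late enzymes. In the wild type all 5 lie to the right of 0, between 0.27 and 0.57, and in flc-3 they lie between -0.25 and 0.35.

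Other genes of the flavonoid pathway were thinly covered by the annotation. Of 64 listed genes besides the 5 late enzymes, 11 have a probe set with a single gene in the annotation and 6 were tested. Of these 6, 1 passed in limma at an adjusted p of 0.05, and it was lower in flc-3. Over all tested probe sets 1.69% passed in either direction and 0.315% passed as lower. All 6 had differences below 0, with a median of -0.24, while 7164 of all 13648 were below 0 with a median of -0.01. Since the list was written with earlier results of these data known, its count is not independent evidence of a direction.

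CHIL (AT5G05270), a chalcone isomerase-like protein that aids chalcone synthesis at the start of the pathway, was the gene that passed. Its signal was 164 and 197 in flc-3, against 337 and 280.3 in the wild type. The genotypes did not overlap, and the log2 value of CHIL fell by 0.77 (SE 0.13, adjusted p = 0.0148 in limma). Its call was lost without flc-3 replicate 1 (adjusted p = 0.146), when dim probe sets were kept (0.0972) and without the intensity trend (0.0712). The difference was smaller in size than that of each of the 5 late enzymes. The other 4 listed early genes, among them chalcone synthase, have no single-gene probe set in the annotation, and neither do the 8 genes of the phenylpropanoid entry.

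The flavonol branch had 3 tested genes, and none passed in limma, with 1 at an unadjusted p under 0.05, as were 12.1% of all tested probe sets. UGT78D2, which adds glucose to both flavonols and anthocyanidins and so acts between LDOX and UF3GT, had signals of 147 and 133 in flc-3, against 231 and 178 in the wild type. Its arrays did not overlap, with a log2 difference of -0.53 (SE 0.14, limma adjusted p = 0.123), and it passed without wild type replicate 2 (adjusted p = 0.0137). Without wild type replicate 1 its difference was -0.35 (limma adjusted p = 0.206). UGT78D1 and UGT89C1, which add rhamnose to flavonols, had differences of -0.25 and -0.24. That of UGT78D1 was -0.075 without flc-3 replicate 2 and -0.42 without flc-3 replicate 1, and that of UGT89C1 was -0.14 without wild type replicate 2. For UGT78D1, the signals of 131 and 103 in flc-3 and of 132 and 145 in the wild type lay close together on 3 arrays. UGT89C1 read 177 and 175 in flc-3, against 194 and 224 in the wild type. UGT78D3, a further member of that group, was too dim to be tested, with signals of 0.43 to 2.64 over the 4 arrays.

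The other decorating and transport genes, 7 in all, have no single-gene probe set in the annotation. After its values were seen, 1 tested probe set, 265091_s_at, was found to be assigned by the annotation to 2 genes that both stand on this list, and it cannot be given to either. It read 54.9 and 42.9 in flc-3, against 231 and 141 in the wild type. The wild-type arrays lay well above the flc-3 arrays, and replicate 1 was the brighter in both genotypes. The log2 difference was -1.87 (SE 0.22, limma adjusted p = 0.00142), which lies within the span of the 5 late enzymes.

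Among regulators, HYH, a bZIP factor of light signalling and a close relative of HY5, which promotes anthocyanin genes, was the 1 gene of 15 listed activators that was tested. It read 41.2 and 41.0 in flc-3, against 38.3 and 44.8 in the wild type, and the genotypes overlapped (log2 difference -0.01, SE 0.17, limma adjusted p = 0.985). The MYB and bHLH activators and the 8 listed repressors have no single-gene probe set in the annotation. BAN, the reductase that leads anthocyanidins into the tannins of the seed coat, read 1.17 to 2.86 over the 4 arrays and was below the filter.

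Relatives of the late enzymes were mostly dim or unnamed. UGT75D1, of the same glycosyltransferase group as AT4G14090, was the 1 relative tested. It read 130 and 164 in flc-3, against 151 and 156 in the wild type, and did not pass (log2 difference -0.08, SE 0.13, limma adjusted p = 0.871). AT3G29635, a relative of AT5MAT, and AT5G53990 and AT5G54010, relatives of UF3GT, were below the filter, with signals of at most 25.7 on any array. The other listed relatives have no single-gene probe set in the annotation, which gave 1 locus to 13436 of 22746 probe sets. Thus 4 of 12 could be read by name, and whether unnamed probe sets read the others is not known.

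**Figure D3:**
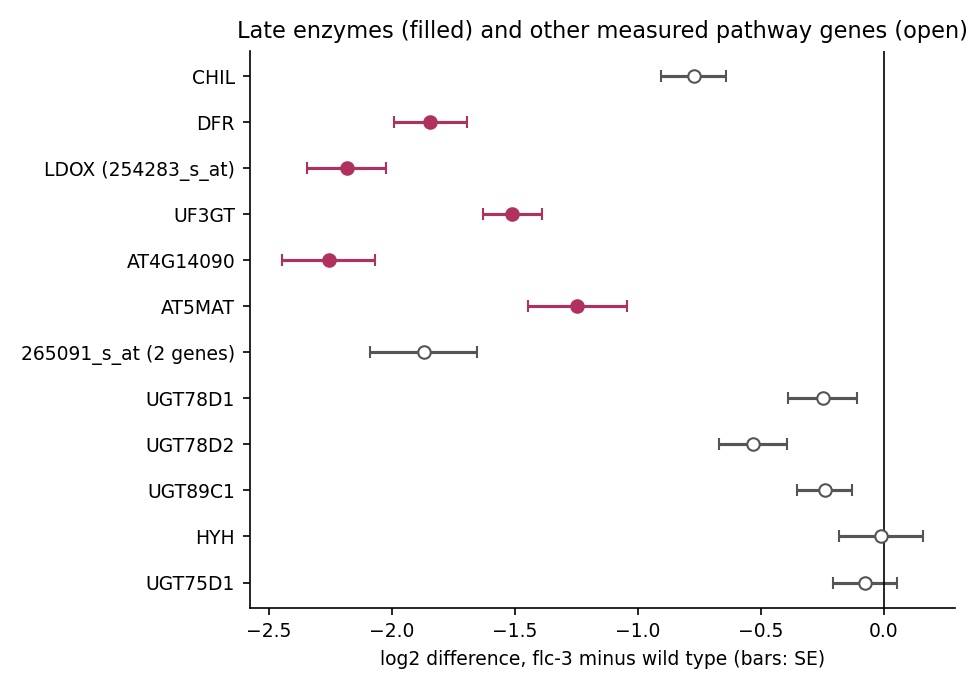
Log2 difference, flc-3 minus wild type, of the 5 late enzymes (filled) and of the 7 other tested probe sets of the pathway lists (open), with bars of 1 SE. The late enzymes lie between -2.26 and -1.25, 265091_s_at at -1.87, CHIL at -0.77, and the remaining open points between -0.53 and -0.01.

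The 5 genes lie on chromosomes 3, 4 and 5, and no 2 of them are neighbours in the TAIR10.1 gene table. Of the 10 protein-coding genes on either side of them, 3 have a single-gene probe set and 2 were tested, and neither passed in limma or had an unadjusted p under 0.05. AT4G14100, beside AT4G14090, read 116 and 99.5 in flc-3, against 102 and 94.0 in the wild type (log2 difference 0.13, SE 0.13, limma adjusted p = 0.746). AT3G29630, beside AT5MAT, read 40.8 and 39.9 in flc-3, against 39.95 and 30.1 in the wild type (log2 difference 0.21, SE 0.19, limma adjusted p = 0.719). AT5G54050, beside UF3GT, read 4.29 to 8.22 over the 4 arrays and was below the filter.

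To find the genes whose pattern was most like that of the late enzymes, each profile of log2 values over the 4 arrays was centred on its own mean and set against the median profile of the 5. The distance is the root mean square difference on the log2 scale. Each late enzyme was set against the median of the other 4, so that its own values did not enter. Its distance was 0.063 for DFR, 0.24 for UF3GT, 0.27 for LDOX, 0.30 for AT4G14090 and 0.38 for AT5MAT. Against the same 4 genes, 0 of 7269 named probe sets and 3 of 6374 tested probe sets with no single named gene lay nearer than AT5MAT. The late enzymes were chosen with the genotype difference known, and that difference enters the distance. Their nearness to each other, and the count of probe sets nearer than AT5MAT, were thus shaped by the choice and are a description. Against the median of all 5, the nearest 5 named probe sets were AT1G58070 at 0.379, AT5G26270 at 0.42, AT2G25510 at 0.44, AT1G19960 at 0.46 and AT1G78995 at 0.49. Their log2 differences between genotypes ran from -1.19 to -0.89. The distance of AT1G58070 was close to the 0.383 of AT5MAT, but they were taken against different medians. AT1G58070 read 31.7 and 34.0 in flc-3, against 78.0 and 64.9 in the wild type, with wild type replicate 1 the brightest as in the late enzymes. AT2G25510 had the opposite order within the wild type, with 544 and 634 in flc-3 against 1177 and 1520 there. The nearest without a single named gene were 250083_at at 0.17 and 265091_s_at at 0.18. The first is unnamed in the annotation and read 83.9 and 66.3 in flc-3, against 311 and 209 in the wild type.

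**Figure D4:**
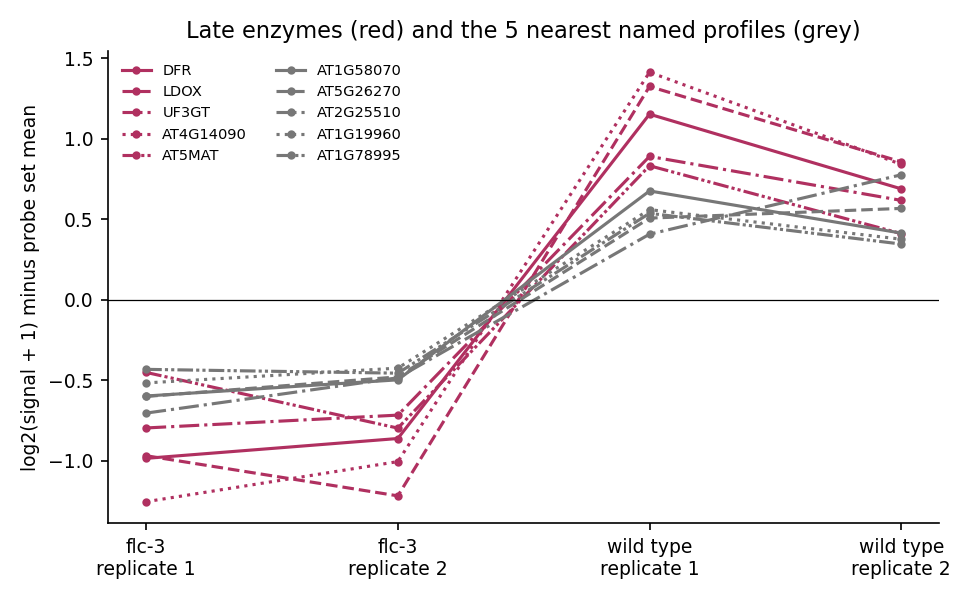
Log2(signal + 1) on each of the 4 arrays minus the mean of the probe set, for the 5 late enzymes (red) and the 5 named probe sets with the nearest profiles (grey). The grey lines run the same way as the red ones between genotypes over a shorter span, and in 3 of the 5 the first wild-type array is higher than the second.

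Seed markers moved with the genotype in the other direction. The 4 measured of 6 seed markers, the storage cupin PAP85, the oleosin OLEO3, the dehydrin LEA and the bZIP factor EEL, all rose in flc-3 in limma at an adjusted p of 0.05, by 1.63 to 3.44 on the log2 scale, against 1.37% of tested probe sets called as higher. Their summed signal was 1316 and 1034 in flc-3, against 179 and 125 in the wild type. Replicate 1 was the brighter for 4 of 4 seed markers in flc-3 and for 3 of 4 in the wild type, where OLEO3 read 17.2 and 21.2. For the late enzymes, replicate 1 was the brighter in 2 of 5 in flc-3 and in 5 of 5 in the wild type. Over all tested probe sets, replicate 1 was the brighter in 52.9% in flc-3 and in 49.1% in the wild type. The part of the seed markers in the result for the late enzymes was not tested. The seed list too was written with earlier results of these data known, so its count is not independent evidence of a direction.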

How the data were processed

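The authors deposited MAS5 signal intensities, linear and already scaled per array, as the submitters' processing notes name that tool without a version. On each array the trimmed mean (2% off each end) was 100.01. This scaling was kept. Probe sets were named through the platform annotation and a TAIR10.1 gene table, which gave 1 locus to 13436. Coordinates are not printed, as the files state no build. Signals were taken as log2(signal + 1), probe sets with a mean log2 value below the 40th percentile were left out, and genotype was fitted in limma 3.58.1 (R 4.3.3; eBayes with an intensity trend, residual df 2) with Benjamini-Hochberg adjusted p under 0.05 over 13648 probe sets. The step was tested on simulated data, in 10 runs with 200 of 13648 probe sets shifted and independent noise for each value. It recovered 89.1% of 2-fold and 99.8% of 4-fold shifts, and 5.14% of its calls were false. The simulation held no differences between whole arrays, such as those seen in the controls, so it does not cover them. A gene with several probe sets is represented by the brightest. Genes named are the 5 late enzymes, the listed genes that passed and the 3 smallest p among the others of each list, the 5 nearest profiles and the adjacent genes. Dim relatives, UGT78D3, BAN, 265091_s_at, 250083_at and 250476_at were named after their values were seen. Members and lists were chosen with earlier results of these data known. Alternatives were 3 normalizations, 2 pseudocounts, 3 filters, 2 variance models, the replicate number as a block and each array left out. Of the filters, that on the mean signal was run first, and the mean log2 value replaced it after both counts were seen.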

Additional observations from a re-analysis of the deposited data

How the results depend on the processing

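All 5 late enzymes stayed lower in flc-3 in each of the 10 alternatives computed for them. Both flc-3 arrays lay below both wild-type arrays in each gene, so a left-out array or another pseudocount could not turn the sign. The replicate block left the differences unchanged. The median log2 difference, -1.84, lay between -2.08 and -1.61 when each array was left out, and those of AT4G14090 and AT5MAT became -1.91 and -0.94 with a pseudocount of 16. The count of 230 called probe sets (187 higher, 43 lower) became 121 when no probe set was left out as dim, 149 with a filter at the 60th percentile, and 147 (without flc-3 replicate 1) to 364 (without wild type replicate 1) with an array left out. Of these, 26 were lower without flc-3 replicate 1, and 74 were lower without wild type replicate 1; leaving out flc-3 replicate 2 left 24 lower. A filter on the mean signal, in place of the mean log2 value, gave 239 (197 higher, 42 lower). It was run first, and the mean log2 value was chosen after both counts were seen, as it gave the counts known from earlier work on these data; the pathway genes kept their side of the threshold under both. Of the 6 tested pathway genes, 1 passed in limma. With no filter 0 of 11 passed, and without the intensity trend 0 of 6, with 2 at an unadjusted p under 0.05 in each. With an array left out, the number lay between 0 (without flc-3 replicate 1, 3 at an unadjusted p under 0.05) and 2 (without wild type replicate 2). With the replicate number as a block the counts were 769 probe sets and 2 pathway genes, the second UGT78D2. Over all alternatives the limma adjusted p ran from 3.64e-10 to 0.146 for CHIL and from 3.01e-04 to 0.579 for UGT78D2, and 265091_s_at passed in each. The replicate numbers share only a number as far as the labels say (replicate 1 deviations correlated at r = 0.09 over probe sets), so this fit, with 1 residual degree of freedom, is not read further. The sign turned for 2 genes that did not pass: HYH, which lay between -0.12 and 0.10 (without wild type replicate 2), and UGT75D1, between -0.24 and 0.091 (without flc-3 replicate 1), with an array left out. The cause of these changes was not tested. With 2 arrays per genotype and no detection calls, dim signals such as those of AT5MAT in flc-3 are the least certain.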
